A study of Mus musculus with 20 samples.

Results

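The mitochondrial genome of the mouse was read as a whole in islet RNAseq: all 37 genes that the annotation places on chromosome M, of 28632 genes in the count table. They are 13 mRNAs, 2 rRNAs and 22 tRNAs, and they were chosen by their chromosome alone, with no measured value. Counts were held for 15 of them, the 13 mRNAs and the 2 rRNAs. The 22 tRNA genes were not analysed here. The 20 libraries came from islets of 12-week-old mice of both sexes in 4 groups, named after the genotype in the labels. Ctrl (6 libraries) is called wild type in the labels, while the study pooled littermates with Ins1-Cre alone and with floxed alleles alone. β-Mfn1KO (4 libraries, Mfn1.KO in the labels), β-Mfn2KO (5, Mfn2.KO) and β-Mfn1/2DKO (5, Mfn1/2.KO) lack Mfn1, Mfn2 or both, 2 proteins of the outer mitochondrial membrane that fuse mitochondria. Ins1-Cre removes a loxP-flanked exon in β-cells only, so the α-cells, δ-cells and other cells of the islet keep both genes. A lower islet level can therefore come from fewer β-cells or from less RNA per β-cell, and these cannot be told apart from the RNA of whole islets. β-cell mass, which the study measured separately, was not analysed here.

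Mitochondrial DNA is a small circle that is transcribed from both strands into long precursor RNAs. The tRNAs lie between most of the mRNAs and rRNAs, and cutting them out releases the separate transcripts. The mRNAs encode core subunits of the respiratory chain and of ATP synthase, which couple the oxidation of glucose metabolites to insulin release in β-cells, while the rRNAs build the mitochondrial ribosome that translates them. All other subunits of these complexes are encoded in the nucleus.

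The genes were laid out by position and strand on GRCm38. The 2 rRNA genes come first on the plus strand, then 12 of the 13 mRNAs follow on the same strand, and mt-Nd6 is the 1 mRNA of the minus strand. By respiratory complex, 7 mRNAs belong to complex I (NADH dehydrogenase), 1 to complex III (cytochrome bc1), 3 to complex IV (cytochrome c oxidase) and 2 to complex V (ATP synthase). Complex II has no mitochondrial gene. In 4 places neighbouring mRNAs overlap, so that a read there belongs to either of them. At 1 of these mt-Atp6 and mt-Co3 share a single base. The sequences of the other 3 follow from the GENCODE M21 transcripts, 5′ to 3′, with the bases that the neighbour shares in capitals. mt-Atp8 (chrM:7766-7969, plus strand) is the shortest of the mRNAs with 204 bases, and its last 43 bases are the first of mt-Atp6. mt-Nd4l (chrM:9877-10173, plus strand, 297 bases) shares its last 7 bases with mt-Nd4. Both whole transcripts are shown because the values of these genes turned on how short transcripts were normalized.
mt-Atp8: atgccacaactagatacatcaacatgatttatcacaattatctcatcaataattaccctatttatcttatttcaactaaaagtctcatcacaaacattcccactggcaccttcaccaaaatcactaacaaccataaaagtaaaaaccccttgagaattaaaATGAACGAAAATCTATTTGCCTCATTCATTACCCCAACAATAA
mt-Nd4l: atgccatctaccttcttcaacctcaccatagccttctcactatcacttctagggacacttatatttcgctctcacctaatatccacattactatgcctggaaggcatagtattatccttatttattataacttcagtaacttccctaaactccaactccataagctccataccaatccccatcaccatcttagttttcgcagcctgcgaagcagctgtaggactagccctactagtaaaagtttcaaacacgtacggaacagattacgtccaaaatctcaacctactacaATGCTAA
mt-Nd5 (plus strand) and mt-Nd6 (minus strand) run towards each other and end in the same 14 base pairs. Their last 40 bases (chrM:13526-13565 and chrM:13552-13591) are shown because the sources used here do not say whether counting used strand, so that reads of one gene within this overlap cannot be told from reads of the other.
mt-Nd5: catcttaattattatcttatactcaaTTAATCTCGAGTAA
mt-Nd6: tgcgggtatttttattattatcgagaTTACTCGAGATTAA

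A second kind of shared sequence lies in the nucleus. On chromosome 1, between 24611535 and 24616197, the annotation holds a row of pseudogenes that copy the mitochondrial genome from within mt-Co1 to within mt-Nd4. The copies of mt-Co2 (Gm28661), mt-Atp6 (Gm10925), mt-Co3 (Gm28437) and mt-Nd4l (Gm10222) had 0 mismatches to the mitochondrial gene over their aligned lengths of 681, 678, 783 and 294 bases, and that of mt-Nd3 (Gm28438) had 1 over 345. The copy of mt-Nd4 (Gm28439) had 0 over 876 of the 1378 bases of mt-Nd4. The first 60 bases of mt-Co2 (chrM:7013-7072, plus strand) stand beside the first 60 of Gm28661 (gene at chr1:24614885-24615565) to show that a read from here carries no base that could place it.
mt-Co2: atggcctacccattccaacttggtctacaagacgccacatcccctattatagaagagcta
Gm28661: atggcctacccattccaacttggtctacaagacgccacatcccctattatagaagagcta
Of stretches of 75 bases, 99.5% in mt-Co2, 99.5% in mt-Atp6, 99.9% in mt-Co3, 97.8% in mt-Nd3, 98.7% in mt-Nd4l, 61.5% in mt-Nd4 and 39.8% in mt-Co1 also occurred in another annotated transcript. In mt-Nd1, mt-Atp8, mt-Nd6, mt-Cytb and the 2 rRNAs 0% did, and in mt-Nd2 and mt-Nd5 5.71% and 1.66%.

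The libraries differed in depth and in other cell types along with genotype. They held 12.4 to 20.3 M counts in Ctrl (M, the prefix mega) and 15.7 to 16.7 M in β-Mfn1KO. In β-Mfn2KO they held 15.1 to 59.5 M (above 40 M in replicates 4 and 5) and in β-Mfn1/2DKO 65.5 to 122.9 M. Every β-Mfn1/2DKO library was thus deeper than every library of the other groups. Mfn1 and Mfn2 were lower in the libraries labelled for their loss, with no overlap with Ctrl, which checks the labels. The 7 β-cell markers were detected in all groups and took up 13.9 to 21.7% of a Ctrl library and 6.45 to 9.47% of a β-Mfn1/2DKO library, where 7 of 7 were lower. The 12 markers of acinar cells, the enzyme-secreting cells of the exocrine pancreas, took up 2.48% and 6.0% of the counts in β-Mfn1/2DKO replicates 4 and 5, 0.0648 to 0.106% in the other 3 and 0.0383 to 0.247% in Ctrl, with 12 of 12 higher in β-Mfn1/2DKO. They took up 0.971% in β-Mfn2KO replicate 4 and 0.0689 to 0.233% in the other 4 of that group. The 4 endothelial markers took up 0.00935 to 0.0139% in Ctrl and 0.0161 to 0.0259% in β-Mfn1/2DKO, where 4 of 4 were higher. For the 4 duct markers these shares were 0.0594 to 0.0831% and 0.0847 to 0.109%, with 2 of 4 higher, and for the 4 α-cell markers they were 1.49 to 4.89% and 3.46 to 5.45%, with 0 of 4 called. Markers were counted as lower or higher at an adjusted p under 0.05 against Ctrl by the edgeR test used below. In β-Mfn1/2DKO 6.86% of all genes were called lower and 9.59% higher. The part of the lower β-cell markers, depth and RNA of other cell types in the differences below was not tested. Values without β-Mfn1/2DKO replicates 4 and 5 are given for some of the results that move with them.

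The first question was how many counts each transcript held for its length. Levels are normalized counts, which are counts scaled by TMM (the library scaling of edgeR), per kilobase of transcript. In Ctrl the highest was mt-Co1, the catalytic subunit of complex IV, at 138962 ± 13395 per kilobase (SD, n = 6). Its range did not meet that of the next, mt-Co3, at 104500.1 ± 11118. Then followed mt-Cytb, mt-Atp6, mt-Nd1, mt-Nd4, mt-Co2 and mt-Nd2, whose ranges overlapped from neighbour to neighbour, down to mt-Nd5 at 48466 ± 7899.8. mt-Nd6 stood at 31402 ± 4288, followed by mt-Rnr2 at 13269.6 ± 2265. The lowest 4 were mt-Rnr1 at 5681 ± 441 and the 3 shortest mRNAs, mt-Nd3 at 5832 ± 1256, mt-Atp8 at 2569 ± 419 and mt-Nd4l at 1718 ± 705. mt-Atp6, which is encoded on the same mRNA as mt-Atp8, stood at 74337 ± 8297, so these levels do not give the amounts of short transcripts. Reads were pairs of 151 bases, and the full transcript length was used for the scaling. The part of read length in the low values was not tested. Whether the library kit selects poly(A) RNA is not given, so the rank of the rRNAs among the mRNAs need not follow their amounts in the islet. The rank correlation of the 15 levels with Ctrl was 0.993 in each of the 3 knockout groups, a description across genes that share their libraries. With the counts of Gm28661 added, mt-Co2 rose to 159151 ± 20180.4 per kilobase. With Gm28437 added, mt-Co3 rose to 146221 ± 12132. Both means then lay above that of mt-Co1, to which no copy was added. The nuclear genes Gm29216 and Gm13340 shared 27.5% and 15.0% of the stretches of mt-Co1, under the limit of 50% for summing. Both held counts, and the order with them added to mt-Co1 was not tested. mt-Nd4l with Gm10222 rose to 9209 ± 1740.1.

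**Figure D1:**
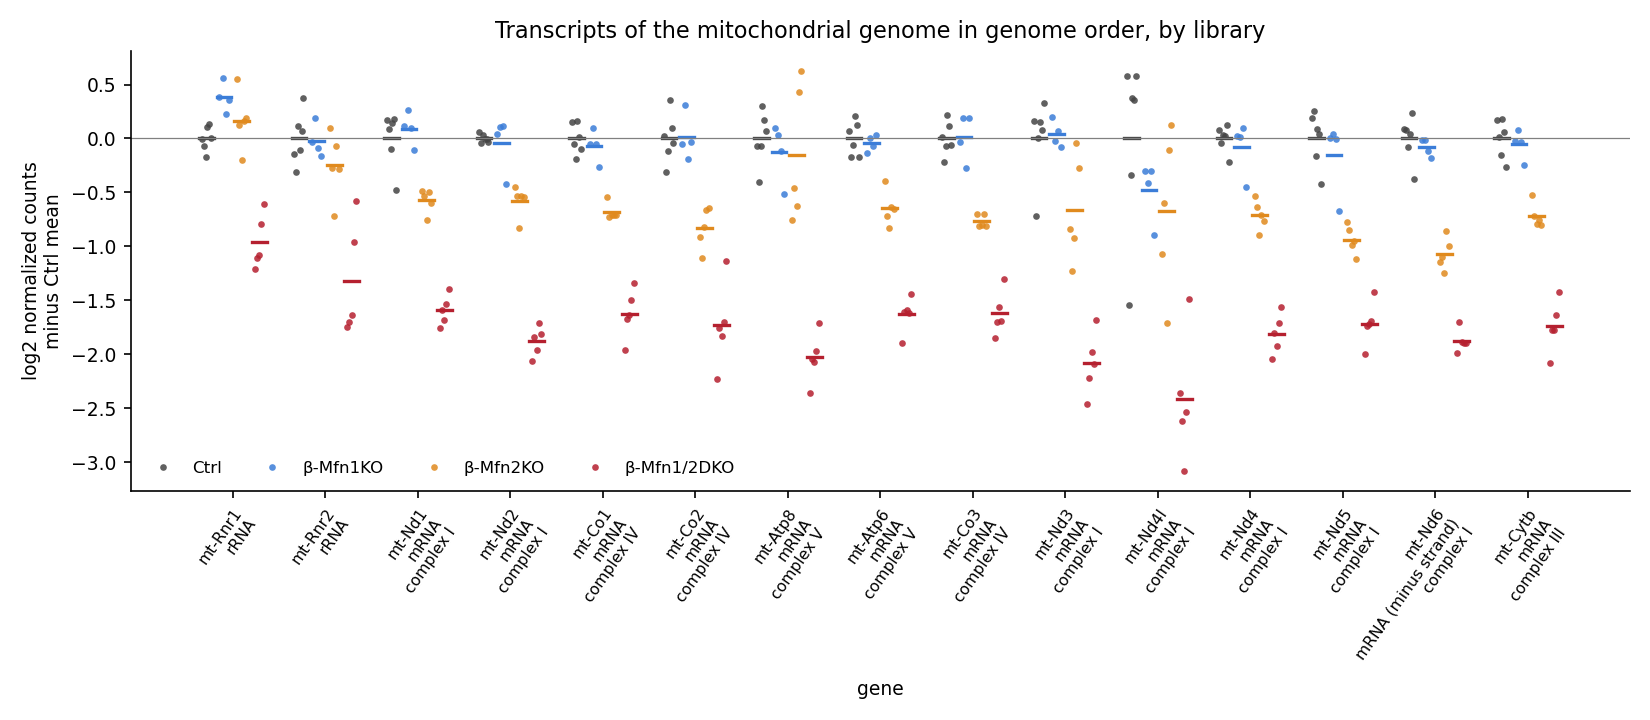
Each point is 1 library: log2 normalized counts of a mitochondrial gene minus the Ctrl mean of that gene, in genome order from left to right. Bars are group means. The β-Mfn1/2DKO libraries lie below all others for every gene but mt-Rnr2 and mt-Nd4l, where replicate 5 overlaps, the β-Mfn2KO libraries lie between them and Ctrl for most mRNAs but not for the rRNAs, and 2 β-Mfn2KO libraries stand above the rest for mt-Atp8.

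The rRNAs were lower in β-Mfn1/2DKO and did not differ detectably from Ctrl in either single knockout. mt-Rnr1 (ENSMUSG00000064337, chromosome M, 70–1024), the RNA of the small ribosomal subunit, stood in Ctrl at 4814 at the lowest, 5408 at the median and 5939.5 at the highest normalized counts. It stood at 7068, 7999, 6338 and 6922 in β-Mfn1KO. In β-Mfn2KO its values were 7927, 5915, 4714, 6074 and 6160.4, and in β-Mfn1/2DKO 2339.9, 2518, 2552, 3114 and 3546. All β-Mfn1KO libraries were above all Ctrl libraries, β-Mfn2KO overlapped Ctrl, and all β-Mfn1/2DKO libraries were below every other library. By the quasi-likelihood test of edgeR, with p adjusted over all genes after Benjamini and Hochberg, its log2 fold change against Ctrl was 0.38 ± 0.12 (adjusted p = 0.51) in β-Mfn1KO, 0.18 ± 0.11 (adjusted p = 0.93) in β-Mfn2KO and −0.95 ± 0.11 (adjusted p = 3.0e-06) in β-Mfn1/2DKO. Fold changes are given ± their standard error (SE), and a gene is called at an adjusted p under 0.05.

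mt-Rnr2 (ENSMUSG00000064339, chromosome M, 1094–2675), the RNA of the large subunit, stood in Ctrl at 16762 at the lowest, 20478 at the median and 26994 at the highest normalized counts and in β-Mfn1KO at 20227, 23709.7, 19503 and 18523. In β-Mfn2KO it stood at 22236, 17211, 12636, 19717 and 17065. In β-Mfn1/2DKO it stood at 6196, 6396, 6653, 10698 and 13844, below every Ctrl library. Replicates 4 and 5, those with high acinar markers, were the highest of this group, and replicate 5 overlapped β-Mfn2KO. The log2 fold change against Ctrl was −0.24 ± 0.18 (adjusted p = 0.93) in β-Mfn2KO and −1.26 ± 0.19 (adjusted p = 4.4e-05) in β-Mfn1/2DKO by the same test. Without replicates 4 and 5 the fold change in β-Mfn1/2DKO was −1.69, and that of mt-Rnr1 −1.11. Between β-Mfn1/2DKO and β-Mfn2KO both rRNAs fell, with log2 fold changes of −1.13 for mt-Rnr1 and −1.02 for mt-Rnr2. Over the alternatives other than leaving out 1 library, mt-Rnr1 ran from −1.30 to −1.02 and mt-Rnr2 from −1.45 to −0.92. Among the libraries above 40 M counts alone, where 5 stood against 2, mt-Rnr2 was at −1.03 with an adjusted p of 0.077.

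As a share of all counts of a library, the rRNAs made up 0.0624 ± 0.0103% in Ctrl (SD, n = 6), 0.0638 ± 0.00629% in β-Mfn1KO (SD, n = 4), 0.0573 ± 0.00969% in β-Mfn2KO (SD, n = 5). β-Mfn1/2DKO had 0.0298 ± 0.00908% (SD, n = 5). Against Ctrl the difference was −0.00512 percentage points in β-Mfn2KO (two-sided exact permutation p = 0.44, adjusted p = 0.48 over 12 share tests) and −0.0326 in β-Mfn1/2DKO (exact permutation p = 0.0043, adjusted p = 0.010). The first p for β-Mfn1/2DKO is the smallest that 6 libraries against 5 can give. The 13 mRNAs together, whose share was lower in both β-Mfn2KO and β-Mfn1/2DKO (adjusted p = 0.010 and 0.010 in the same family), were taken as the reference for the rRNAs. For every 100 mRNA counts, rRNA counts in Ctrl ran from 2.83 over a median of 3.10 to 4.68, and in β-Mfn1KO they were 3.50, 3.73, 3.35 and 3.78. In β-Mfn2KO they were 5.74, 4.86, 3.87, 5.31 and 4.95, and in β-Mfn1/2DKO 4.26, 3.72, 3.85, 5.39 and 5.90. The means were higher than in Ctrl by 1.57 in β-Mfn2KO (exact permutation p = 0.0087) and by 1.25 in β-Mfn1/2DKO (exact permutation p = 0.039), but neither passed adjustment over the 24 tests of composition (adjusted p = 0.10 and 0.31). This ratio was taken up after the values had been seen. Ctrl replicate 6 held the highest Ctrl value and overlapped both groups, and without it the differences were 1.83 and 1.51. Their adjusted p was 0.048 each by the exact permutation test, adjusted over the comparisons with Ctrl alone. That family is smaller than the 24 tests, so this value cannot be set beside the adjusted p-values above. Without β-Mfn1/2DKO replicates 4 and 5 the second difference was 0.564.

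**Figure D2:**
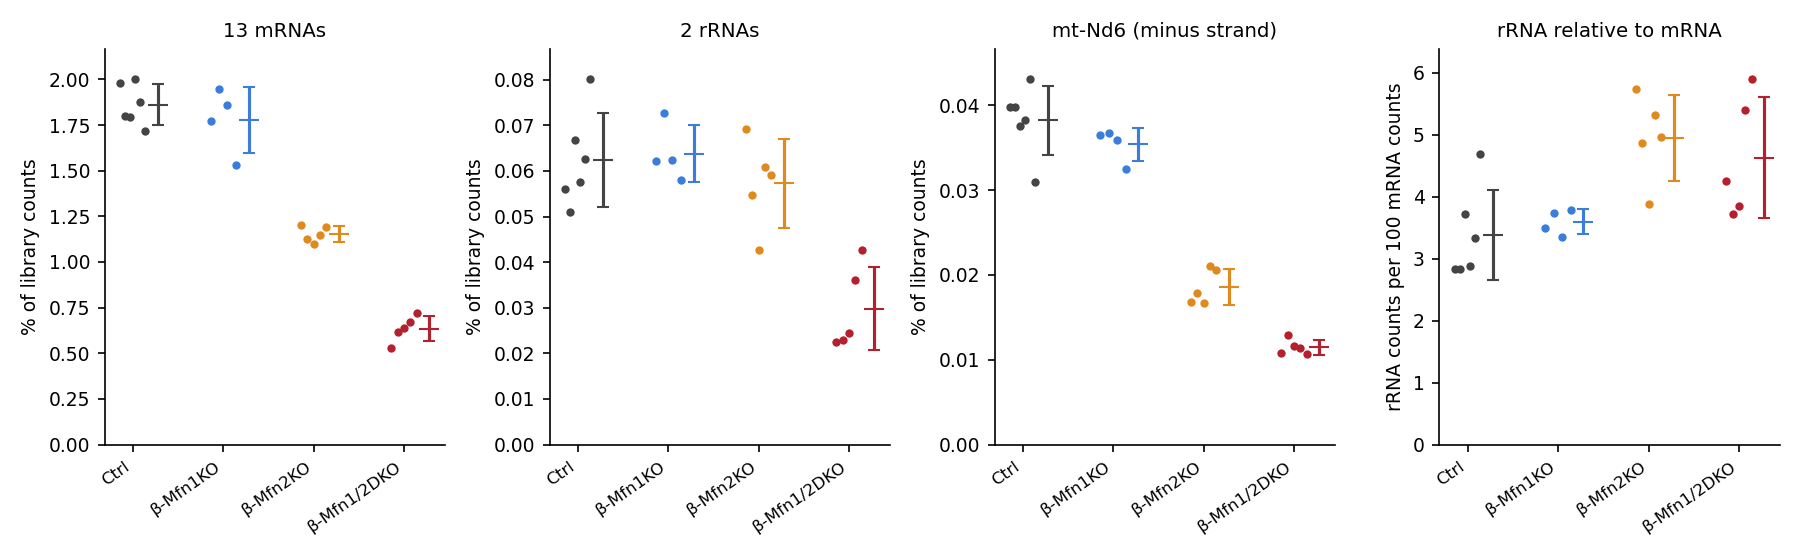
Points are libraries and bars are the mean with its SD. The first 3 panels give the percent of a library's counts in the 13 mRNAs, the 2 rRNAs and mt-Nd6, and the last gives rRNA counts per 100 mRNA counts. The mRNA and mt-Nd6 shares step down from Ctrl to β-Mfn2KO to β-Mfn1/2DKO, while the rRNA share of β-Mfn2KO overlaps Ctrl, and β-Mfn1/2DKO replicates 4 and 5 stand above the other 3 for rRNA.

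Among the mRNAs, 10 of 13 were called lower in β-Mfn2KO, where 0.0489% of all genes were called lower, and 13 of 13 in β-Mfn1/2DKO, where 6.86% were. In β-Mfn1KO 0 of the 15 members were called (0.0279% of all genes in either direction), with an unadjusted p under 0.05 for mt-Rnr1 and for 0 of 13 mRNAs, and DESeq2 called 0 as well. Values of both groups did not overlap in 10 members for β-Mfn2KO against Ctrl and in 14 for β-Mfn1/2DKO against Ctrl, each time lower, next to 0.168% and 4.04% of all genes. In β-Mfn1KO 1 member, mt-Rnr1, lay above Ctrl without overlap, as did 0.503% of all genes. Over all genes the median log2 fold change was 0.02 and 0.06 in β-Mfn2KO and β-Mfn1/2DKO. All 3 comparisons share the Ctrl libraries.

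Complex I, which takes electrons from NADH, has 7 mitochondrial subunits. In β-Mfn2KO 5 of them fell, from −0.57 (mt-Nd2) to −1.07 (mt-Nd6), and in β-Mfn1/2DKO 7 of 7, from −1.60 (mt-Nd1) to −2.48 (mt-Nd4l). mt-Nd2 (ENSMUSG00000064345, chromosome M, 3914–4951), a subunit of the membrane arm, varied least in Ctrl, with 55719 at the lowest, 57174 at the median and 59689.9 at the highest normalized counts. Its values were 59103, 61882, 62271 and 42828 in β-Mfn1KO. They were 42084, 39686, 32253, 39791 and 39433 in β-Mfn2KO and 13716, 16055, 14792, 17511 and 16348 in β-Mfn1/2DKO. No β-Mfn2KO library reached Ctrl and no β-Mfn1/2DKO library reached β-Mfn2KO. mt-Nd1 (ENSMUSG00000064341, chromosome M, 2751–3707), at the joint of the membrane arm and the arm that holds the redox centres, ran from 46634 to 73539 in Ctrl, with replicate 6 the lowest. It ran from 38388 to 46239.8 in β-Mfn2KO and from 19175 to 24635 in β-Mfn1/2DKO. Its call in β-Mfn2KO was lost without Ctrl replicate 1, 4 or 5 or β-Mfn2KO replicate 3 (adjusted p = 0.0536 to 0.0728), each time with a log2 fold change between −0.56 and −0.54. It was also lost without β-Mfn2KO replicates 4 and 5 (adjusted p = 0.11) and in a fit of these 2 groups alone (adjusted p = 0.0933).

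mt-Nd4 (ENSMUSG00000064363, chromosome M, 10167–11544) and mt-Nd5 (ENSMUSG00000064367, chromosome M, 11742–13565) encode the proton-pumping subunits of the far end of the membrane arm. mt-Nd5 stood in Ctrl at 65400.2 at the lowest, 91488 at the median and 104267 at the highest normalized counts. In β-Mfn1KO it stood at 87701, 89975, 87201 and 54956, with replicate 4, the 1 male of the group, apart from the others. In β-Mfn2KO its values were 51036, 48504, 43939, 45234 and 40195 and in β-Mfn1/2DKO 21826, 26159, 26486, 26976 and 32537. The 3 groups Ctrl, β-Mfn2KO and β-Mfn1/2DKO did not overlap. mt-Nd5 changed by a log2 fold of −0.95 ± 0.13 (adjusted p = 0.0013) in β-Mfn2KO and −1.72 ± 0.13 (adjusted p = 9.1e-09) in β-Mfn1/2DKO. mt-Nd4 ran from 72047 to 90812 in Ctrl, from 44806 to 57775 in β-Mfn2KO and from 20189 to 28196 in β-Mfn1/2DKO, again without overlap. The log2 fold changes of mt-Nd4 were −0.71 and −1.81.

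The 2 remaining plus-strand subunits of complex I are short and small in count. mt-Nd3 (ENSMUSG00000064360, chromosome M, 9459–9806, 348 bases) stood in Ctrl at 1204 at the lowest, 2149 at the median and 2481 at the highest normalized counts. It stood at 1109, 847, 1047, 1929.7 and 1639 in β-Mfn2KO and at 360.4, 426, 504, 465 and 619 in β-Mfn1/2DKO. The β-Mfn2KO libraries overlapped Ctrl, and replicates 4 and 5, the deep ones, were the highest of them. mt-Nd4l (ENSMUSG00000065947, chromosome M, 9877–10173) stood in Ctrl at 157 at the lowest, 589 at the median and 683 at the highest, a wide spread set by replicate 2 at the low end. Its values were 371, 344, 370.0 and 247 in β-Mfn1KO. They were 217, 302, 140.0, 425 and 499 in β-Mfn2KO and 89.2, 74.2, 54.0, 78.8 and 163 in β-Mfn1/2DKO. Replicate 5 of β-Mfn1/2DKO thus overlapped the lowest Ctrl library. The log2 fold changes in β-Mfn2KO were −0.61 ± 0.18 (adjusted p = 0.93) for mt-Nd3 and −0.65 ± 0.33 (adjusted p = 0.93) for mt-Nd4l, neither called, and in β-Mfn1/2DKO −2.10 and −2.48, both called. Without β-Mfn2KO replicates 4 and 5 the log2 fold change of mt-Nd3 in β-Mfn2KO was −1.02 and called (adjusted p = 0.031), and that of mt-Nd4l −1.20 and not called (adjusted p = 0.94).

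mt-Nd6 (ENSMUSG00000064368, chromosome M, 13552–14070), a membrane-arm subunit and the 1 mRNA of the minus strand, had the largest fall of the 13 in β-Mfn2KO with all libraries and not in β-Mfn1/2DKO. Without β-Mfn2KO replicates 4 and 5 its log2 fold change in β-Mfn2KO was −1.18, next to −1.20 for mt-Nd4l. It stood in Ctrl at 12487 at the lowest, 16876 at the median and 19066 at the highest normalized counts. In β-Mfn1KO it stood at 16026, 15999.8, 14904 and 14273. In β-Mfn2KO its values were 7329, 7528, 6787, 8930.5 and 8113, and in β-Mfn1/2DKO 4062, 4983, 4375, 4340.1 and 4342. Each step from Ctrl over β-Mfn2KO to β-Mfn1/2DKO was free of overlap. The log2 fold change was −1.07 ± 0.09 (adjusted p = 3.8e-07) in β-Mfn2KO, −1.88 ± 0.09 (adjusted p = 1.0e-11) in β-Mfn1/2DKO and −0.81 ± 0.09 (adjusted p = 3.0e-06) between them. As a share of a library mt-Nd6 went from 0.0382 ± 0.00407% in Ctrl to 0.0186 ± 0.00210% in β-Mfn2KO (exact permutation p = 0.0043, adjusted p = 0.010 over 12 share tests). As a share of the 13-mRNA pool it went from 2.05 ± 0.185% to 1.61 ± 0.175% in β-Mfn2KO (exact permutation p = 0.0087, adjusted p = 0.10 over 24 composition tests) and 1.82 ± 0.247% in β-Mfn1/2DKO (adjusted p = 0.37). So the larger fall of the minus-strand mRNA did not pass adjustment with all libraries and the counts as deposited. In the tests of single mRNA shares given below, with nuclear copies added to their genes, its smaller share in β-Mfn2KO did pass. Without Ctrl replicate 6, the lowest of Ctrl, the difference in β-Mfn2KO was −0.490 percentage points. Its adjusted p was 0.048 by the exact permutation test, adjusted over the comparisons with Ctrl alone. That family is smaller than the 24 composition tests, so this value cannot be set beside the 0.10.

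Complex III has 1 mitochondrial subunit, cytochrome b. mt-Cytb (ENSMUSG00000064370, chromosome M, 14145–15288) stood in Ctrl at 76044 at the lowest, 93885 at the median and 103851 at the highest normalized counts and in β-Mfn1KO at 90104, 96802, 89759 and 76982. In β-Mfn2KO its values were 63649, 55721, 52728, 54128 and 52573, and in β-Mfn1/2DKO 21585, 26666, 26709.8, 29392 and 34207. β-Mfn1KO overlapped Ctrl, and the other groups were apart from it and from each other. On the log2 scale mt-Cytb changed by −0.72 ± 0.10 (adjusted p = 0.0014) in β-Mfn2KO and −1.73 ± 0.11 (adjusted p = 2.1e-10) in β-Mfn1/2DKO. No other annotated transcript shares a 75-base stretch with mt-Cytb.

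Complex IV, which passes electrons to oxygen, has 3 mitochondrial subunits that form its catalytic core, and all 3 fell in β-Mfn2KO and in β-Mfn1/2DKO. mt-Co1 (ENSMUSG00000064351, chromosome M, 5328–6872), which holds the haems of the active site, stood in Ctrl at 187944 at the lowest, 211721 at the median and 238975 at the highest normalized counts. In β-Mfn1KO its values were 206451, 228897, 206054 and 177591. In β-Mfn2KO they were 146672, 129209.7, 130697, 130714 and 130693 and in β-Mfn1/2DKO 55051, 66846, 68594, 75645 and 84487. Of the β-Mfn2KO libraries 4 lay close together and replicate 1 stood above them. On the log2 scale mt-Co1 changed by −0.68 ± 0.10 (adjusted p = 0.0014) in β-Mfn2KO and −1.61 ± 0.10 (adjusted p = 2.1e-10) in β-Mfn1/2DKO. mt-Co2 (ENSMUSG00000064354, chromosome M, 7013–7696), which accepts electrons from cytochrome c, was at 30926 at the lowest, 38118 at the median and 49195 at the highest in Ctrl. It was at 20436, 17769, 21695, 24214 and 24579.5 in β-Mfn2KO and at 8161, 11363, 10794, 11835 and 17436 in β-Mfn1/2DKO. The groups did not overlap, and the log2 fold changes were −0.84 ± 0.15 (adjusted p = 0.019) and −1.70 ± 0.15 (adjusted p = 7.0e-08). The β-Mfn2KO call of mt-Co2 was lost without any of Ctrl replicates 1, 4 and 5 or β-Mfn2KO replicates 1, 2 and 3 (adjusted p = 0.0509 to 0.0995). mt-Co3 (ENSMUSG00000064358, chromosome M, 8607–9390), the third core subunit, had log2 fold changes of −0.77 in β-Mfn2KO and −1.62 in β-Mfn1/2DKO, with values from 70031 to 94913 in Ctrl to 46352 to 50297 in β-Mfn2KO and 22670.2 to 32961 in β-Mfn1/2DKO.

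Complex V makes ATP, and both of its mitochondrial subunits sit in its membrane part. mt-Atp6 (ENSMUSG00000064357, chromosome M, 7927–8607), which forms the proton path, stood in Ctrl at 44645 at the lowest, 50545 at the median and 58308 at the highest normalized counts. In β-Mfn2KO its values were 38225, 30559, 28363, 32479 and 32085 and in β-Mfn1/2DKO 13549, 16518, 16706, 16435 and 18515. The 3 groups did not overlap. On the log2 scale mt-Atp6 changed by −0.65 ± 0.09 (adjusted p = 0.0013) in β-Mfn2KO and −1.63 ± 0.09 (adjusted p = 5.7e-11) in β-Mfn1/2DKO. mt-Atp8 (ENSMUSG00000064356, chromosome M, 7766–7969), a small subunit beside it that is encoded on the same mRNA, stood at 391 at the lowest, 519.5 at the median and 638 at the highest in Ctrl. Its values were 307, 377, 337, 698 and 800.4 in β-Mfn2KO and 101, 126, 123.1, 132 and 158 in β-Mfn1/2DKO. In β-Mfn2KO 3 libraries lay below every Ctrl library and 2, replicates 4 and 5, above every Ctrl library, whereas β-Mfn1/2DKO lay below all. The log2 fold change of mt-Atp8 was −0.02 ± 0.21 (adjusted p = 1) in β-Mfn2KO and −2.03 ± 0.22 (adjusted p = 7.9e-07) in β-Mfn1/2DKO. Without β-Mfn2KO replicates 4 and 5 the first was −0.62 (adjusted p = 0.80), and with total-count scaling it was 0.02, so its sign depended on the scaling.

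In β-Mfn1/2DKO the values of the 3 shortest mRNAs changed most with the normalization. The authors' second table divides counts by factors that differ between genes, and the ratio of both tables gives these factors back. Relative to the median factor of its library, mt-Atp8 had a factor of 0.672 to 0.730 in the 5 β-Mfn1/2DKO libraries. It had 1.77 and 2.13 in β-Mfn2KO replicates 4 and 5, 0.936 to 0.995 in the other 3, and 0.717 to 1.42 in Ctrl. For mt-Co1, with 1545 bases, the lowest factor of any library was 0.992 and the highest was within the same distance of 1. The factors of mt-Nd4l and mt-Nd3 followed those of mt-Atp8, at 0.678 to 0.740 and 0.732 to 0.791 in β-Mfn1/2DKO. With these factors as offsets the median log2 fold change of the 3 mRNAs under 400 bases in β-Mfn1/2DKO moved from −2.10 to −1.56, and that of the other 10 from −1.71 to −1.67. Between β-Mfn1/2DKO and β-Mfn2KO the short median moved from −1.83 to −1.02, next to −0.92 for the others. mt-Atp8 in β-Mfn2KO moved from −0.02 to −0.41 and was still not called, while mt-Nd3 was called at −0.66 (adjusted p = 0.00715), so that 11 of 13 were. In β-Mfn1/2DKO all 13 remained called, now from −1.86 (mt-Nd2) to −1.42 (mt-Atp8). mt-Atp8 thus went from the third largest fall of the 13 to the smallest.

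**Figure D3:**
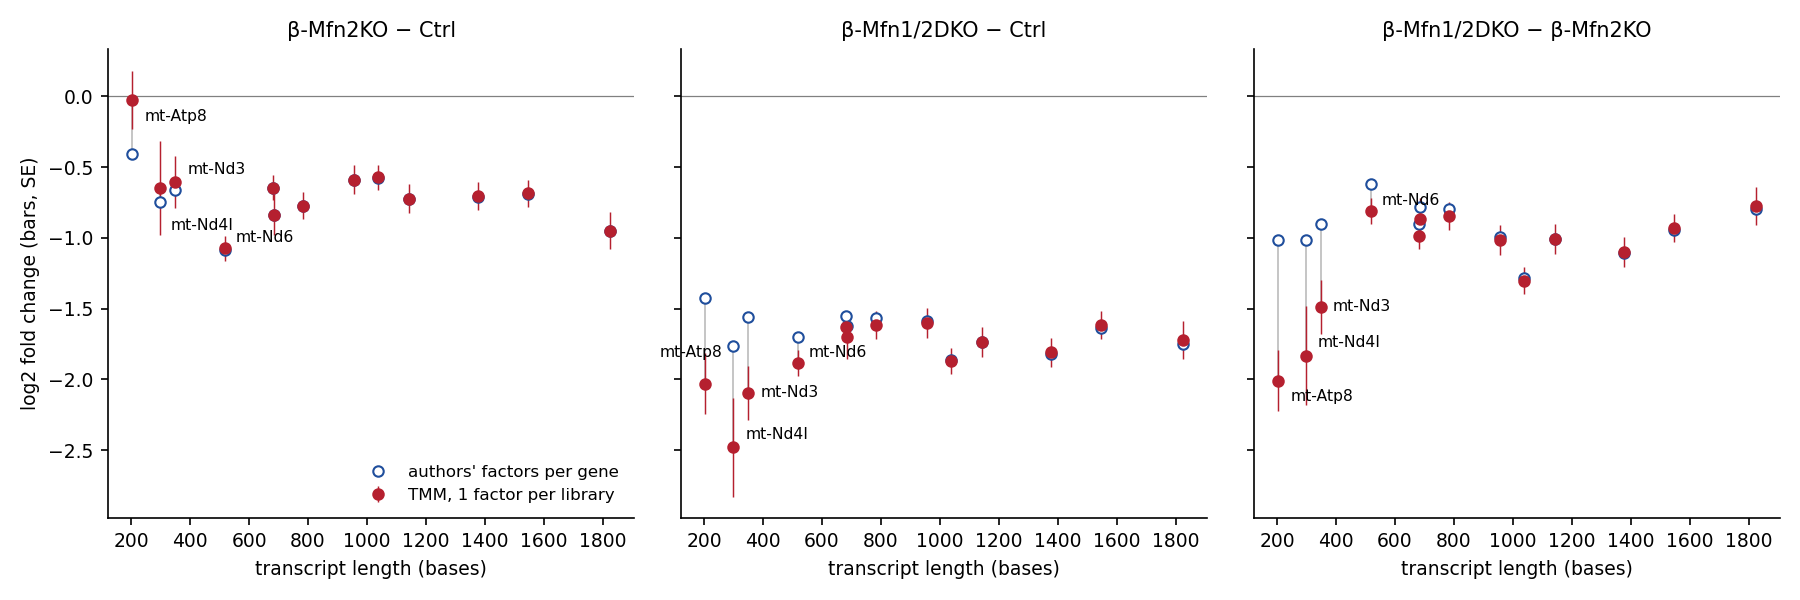
Log2 fold change of the 13 mRNAs against transcript length in bases for 3 comparisons. Filled points with SE bars use 1 TMM factor per library, and open points use the authors' factors for each gene and library. In β-Mfn1/2DKO against Ctrl mt-Atp8 goes from −2.03 to −1.42, mt-Nd6 from −1.88 to −1.70 and mt-Co1 from −1.61 to −1.63.

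Position along the plus strand was read against the fold changes as a description, over genes that share their libraries. In β-Mfn2KO the rank correlation of the log2 fold change with the start of the gene was −0.53 over the 12 plus-strand mRNAs, and −0.56 with the authors' factors. In β-Mfn1/2DKO it was −0.41 and −0.22, and between β-Mfn1/2DKO and β-Mfn2KO 0.08 and 0.06. With the counts of each nuclear copy added to its gene it was −0.38 in β-Mfn2KO and −0.29 in β-Mfn1/2DKO. With the authors' factors as well these were −0.38 and −0.33. With transcript length the correlation over 13 mRNAs in β-Mfn1/2DKO was 0.57 and turned to −0.52 with the authors' factors. In β-Mfn2KO the plus-strand genes nearest the start, mt-Nd1 and mt-Nd2, were at −0.59 and −0.57, and the last ones, mt-Nd5 and mt-Cytb, at −0.95 and −0.72. In β-Mfn1/2DKO the same 4 were at −1.60, −1.87, −1.72 and −1.73, with no order along the genome. The 2 rRNAs, upstream of all of them, had the smallest falls of the 15 members in β-Mfn1/2DKO with all libraries. Without replicates 4 and 5 of that group mt-Rnr2 was at −1.69 and mt-Nd1, the mRNA with the smallest fall, at −1.67.

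By complex, differences in the make-up of the mRNA pool did not pass the test. Complex I mRNAs were 39.6 ± 2.10% of the 13-mRNA counts in Ctrl (SD, n = 6), 39.4 ± 3.16% in β-Mfn1KO (n = 4), 39.2 ± 1.38% in β-Mfn2KO (n = 5) and 37.9 ± 1.35% in β-Mfn1/2DKO (n = 5). Complex IV mRNAs were 42.3 ± 2.06%, 42.6 ± 2.59%, 42.3 ± 1.47% and 44.1 ± 1.22% in the same order. Complex III was at 11.6 ± 0.428% in Ctrl and 11.2 ± 0.332% in β-Mfn1/2DKO, and complex V at 6.45 ± 0.361% and 6.72 ± 0.303%. Of 24 exact permutation tests (4 complexes, mt-Nd6 and the rRNA ratio in 4 comparisons) 0 passed adjustment, and 3 had an unadjusted p under 0.05, mt-Nd6 and the rRNA ratio in β-Mfn2KO and the rRNA ratio in β-Mfn1/2DKO. For complex IV the difference of β-Mfn1/2DKO from Ctrl was 1.77 percentage points (exact permutation p = 0.12, adjusted p = 0.37) and from β-Mfn2KO 1.76 (exact permutation p = 0.071, adjusted p = 0.37). With each mRNA tested on its own as the log2 of its share of the pool, 0 of 52 tests passed adjustment and 14 had an unadjusted p under 0.05.

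**Figure D4:**
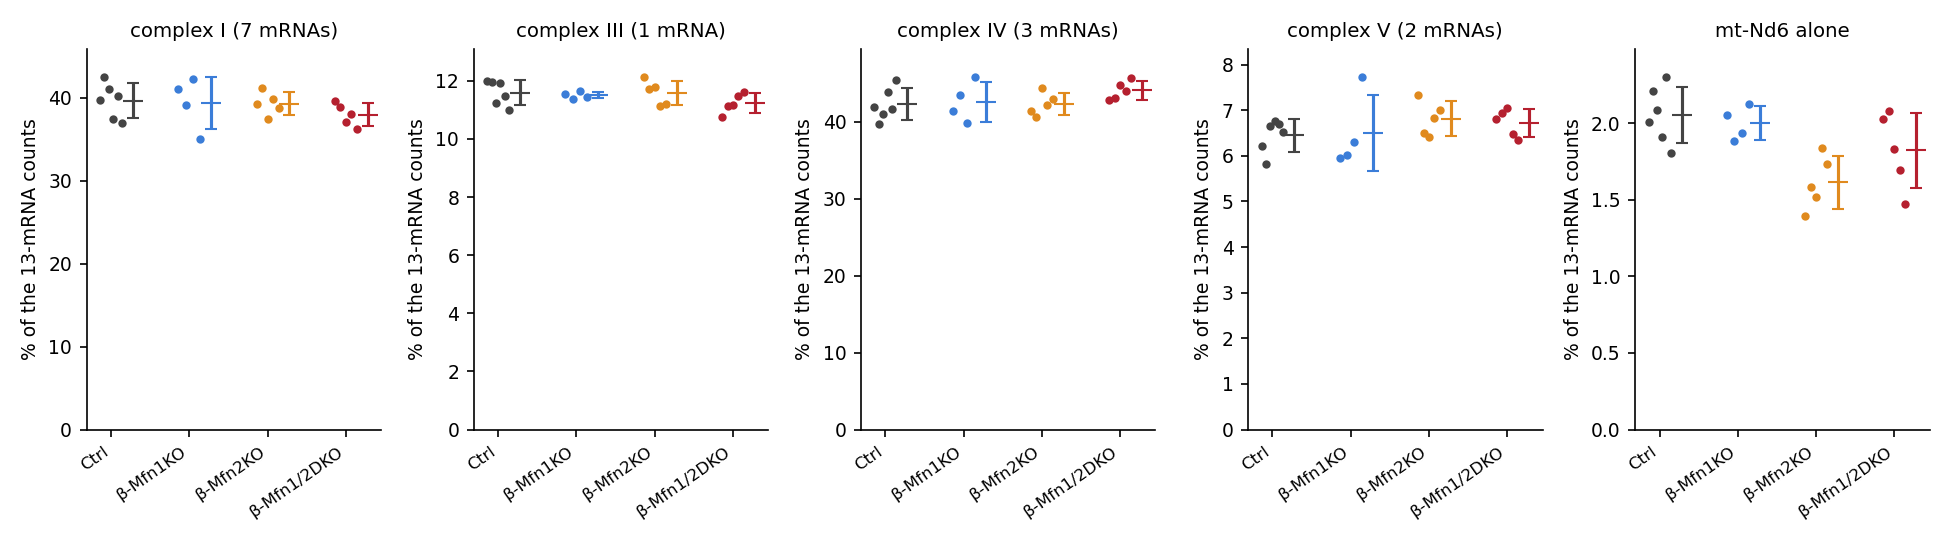
Percent of the counts of the 13 mRNAs that fall to each respiratory complex and to mt-Nd6, which is also part of complex I. Points are libraries and bars are the mean with its SD. The groups overlap in every panel, and for mt-Nd6 4 of 5 β-Mfn2KO libraries lie below every Ctrl library.

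The assignment of reads between mitochondrial genes and their nuclear copies varied between libraries of the same group. Of the counts of mt-Co2 and Gm28661 together, 25.4 to 43.4% were assigned to mt-Co2 over the 20 libraries. For mt-Atp6 and Gm10925 this share was 62.0 to 76.0%, for mt-Co3 and Gm28437 62.2 to 77.0%, for mt-Nd3 and Gm28438 28 to 49.0%, for mt-Nd4l and Gm10222 9.07 to 24.4% and for mt-Nd4 and Gm28439 97.4 to 99.5%. The groups overlapped in each pair, as in mt-Co2, with 31.7 to 40.1% in Ctrl, 32.0 to 37.7% in β-Mfn2KO and 25.4 to 42.4% in β-Mfn1/2DKO. The copies were lower in β-Mfn1/2DKO too, with log2 fold changes of −1.69 (Gm28661), −1.52 (Gm10925), −1.40 (Gm28437), −2.32 (Gm28438), −2.48 (Gm10222) and −2.37 (Gm28439), all 6 called (all genes called lower, 6.86%). In β-Mfn2KO Gm28661 was called at −0.81 and the other 5 were not, at −0.62 (Gm28438) to −0.30 (Gm28439), where 0.0489% of all genes were called lower. Together the copies held 0.273 to 0.353% of a Ctrl library and 0.106 to 0.125% of a β-Mfn1/2DKO library. With each of these copies added to its gene the number of mRNAs called stayed at 10 in β-Mfn2KO and 13 in β-Mfn1/2DKO.

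Shares of single mRNAs in the pool were also compared with each copy added to its gene. Of 52 exact permutation tests 12 then passed adjustment, each with an adjusted p of 0.0409 or 0.0413. Against Ctrl 1 passed in β-Mfn1KO, 2 in β-Mfn2KO and 3 in β-Mfn1/2DKO, and 6 passed in β-Mfn1/2DKO against β-Mfn2KO. Not all of the 12 are named here. In β-Mfn1KO mt-Nd1 took a larger part of the pool than in Ctrl (log2 difference 0.13). In β-Mfn2KO mt-Nd6 took a smaller part of the pool than in Ctrl (log2 difference −0.36) and mt-Atp6 a larger one (0.15). In β-Mfn1/2DKO mt-Nd4 was a smaller part (−0.14) and mt-Atp6 a larger one (0.09). With the authors' factors as well, an alternative added after the data were seen, these 4 differences were −0.36, 0.15, −0.18 and 0.14 and again passed. mt-Nd2 was a smaller part in β-Mfn1/2DKO than in β-Mfn2KO under both (−0.33 and −0.34), whereas the call of mt-Atp8 in that comparison (−0.90) was lost with the factors (−0.08). With both, complex V rose by 0.874 percentage points of the pool in β-Mfn2KO and by 0.806 in β-Mfn1/2DKO (exact permutation adjusted p = 0.035 each). With all counts as deposited these complex V differences were 0.368 and 0.271 and did not pass.

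**Figure D5:**
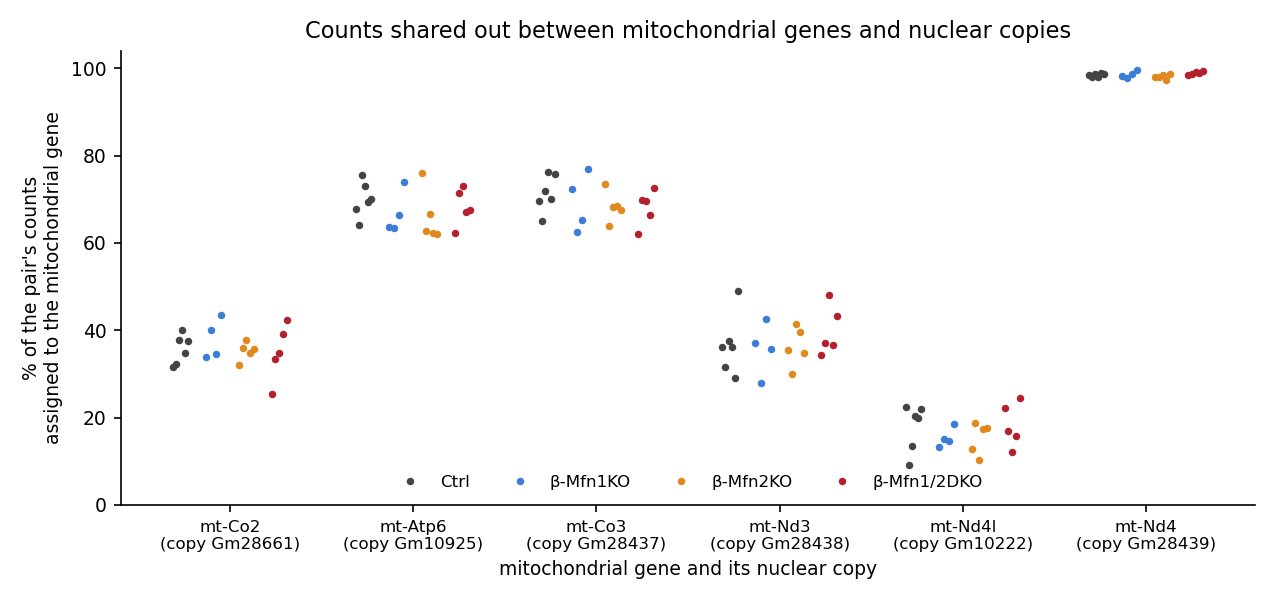
Percent of the counts of a mitochondrial gene and its nuclear copy that were assigned to the mitochondrial gene. Points are libraries, by group. The 4 groups overlap for every pair, and mt-Nd4 keeps over 97% while mt-Nd4l keeps at most 24.4%.

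Loss of Mfn1 was then compared with and without Mfn2, as the difference of β-Mfn1/2DKO from β-Mfn2KO minus the difference of β-Mfn1KO from Ctrl. This interaction was called lower for 11 of 13 mRNAs and 2 of 2 rRNAs, where 3.03% of all genes were called lower. mt-Rnr1 had −1.51 ± 0.16 (adjusted p = 2.0e-05) on the log2 scale, with a higher mean in β-Mfn1KO and a lower one in β-Mfn1/2DKO. mt-Rnr2 had −0.99 ± 0.27 (adjusted p = 0.030) and lost its call in 7 of the 20 fits that left out 1 library (adjusted p = 0.0512 to 0.0731). Over the other alternatives the value of mt-Rnr2 ran from −1.41 to −0.85. Among the longer mRNAs the largest value was that of mt-Nd2 with −1.28 ± 0.13 (adjusted p = 1.4e-05), and mt-Nd1 had −1.09. The 3 mRNAs of complex IV were close to each other, at −0.86, −0.88 and −0.87. mt-Co2 lost its call without β-Mfn1KO replicate 2 (adjusted p = 0.0506) and without β-Mfn2KO replicates 4 and 5 (adjusted p = 0.0605), each leaving 10 mRNAs called. mt-Nd5 (−0.63, adjusted p = 0.052) and mt-Nd4l (−1.22, adjusted p = 0.17) were not called. mt-Nd5 was called without β-Mfn1KO replicate 4, its stand-apart library (−0.77, adjusted p = 0.0082). The direct comparison of β-Mfn1/2DKO with β-Mfn1KO called 13 of 13 mRNAs and 2 of 2 rRNAs lower (all genes, 7.69%), with medians of −1.71 and −1.28. That with β-Mfn2KO called the same numbers (5.9%), with medians of −1.01 and −1.08.

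Of nuclear-encoded subunits in the count table, 9 of 37 in complex I were called lower and 2 higher in β-Mfn1/2DKO, with a median log2 fold change of −0.02, next to 6.86% of all genes called lower and 9.59% higher. For complex II 1 of 4 was lower (median −0.04), for complex III 2 of 9 (−0.09), for complex IV 4 of 11 (−0.18) and for complex V 5 of 15 (−0.15), and 0 of these were higher. The median of all genes was 0.06. In β-Mfn2KO, where the mitochondrial mRNAs of the same complexes had a median of −0.68, 0 subunits of the 5 lists were called and the medians ran from −0.07 to −0.01. Of 43 tested genes for the transcription, cutting, modification and decay of mitochondrial RNA, 3 were called in β-Mfn1/2DKO, next to 16.5% of all genes, and 0 in β-Mfn2KO (all genes, 0.0559%). Pus1, which makes pseudouridine in RNA, was higher at 0.34 (SE 0.05, adjusted p = 1.3e-04). Gtpbp3, which helps to modify mitochondrial tRNAs, was higher at 0.16 (SE 0.06, adjusted p = 0.046). Trmt61b, a methyltransferase of mitochondrial RNA, was lower at −0.48 (SE 0.15, adjusted p = 0.028). The medians of this list were −0.001 in β-Mfn2KO and 0.03 in β-Mfn1/2DKO.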

How the data were processed

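Islet RNA of 20 libraries was sequenced as 151-base read pairs. According to the study's methods and the labels, the reads were trimmed with cutadapt 2.3, checked with FastQC 0.11.8, aligned to GRCm38 with STAR 2.6.1b and counted per gene with RSEM 1.3.1. The deposited counts are whole numbers, not normalized, with genes that had no count anywhere removed. The authors' second table is a signal, the counts divided by DESeq2 1.26.0 normalization factors that differ between genes, and was used only to recover these factors. Whether the library kit keeps strand or selects poly(A) RNA is not given in the sources used here.

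Groups, sex and replicate numbers come from the labels, and 0 sample columns were left out. The study counts its islet samples as mice, and p-values measure the spread between these samples. Symbols came from GENCODE M21 by Ensembl ID, with 53 genes unmatched. All 28632 genes were fitted with edgeR 4.0.16 in R 4.3.3 (TMM, glmQLFit, glmQLFTest, 1 coefficient per group, no covariate) with Benjamini-Hochberg adjustment over all genes, and called at an adjusted p under 0.05. SE is the absolute log2 fold change over the root of F. The fit was tested on simulated counts. Exact permutation tests, two-sided, compared shares and make-up (SciPy 1.17.1). Counting precision was high: Wilson intervals (95%) of shares were at most 0.0156 percentage points wide for mRNA and 0.00308 for rRNA, which covers counting error only. Stretches of 75 bases were compared between transcripts, and a copy sharing over 50% of a gene's stretches was summed with it in an alternative. tRNA shares had been planned and were not analysed here. Named genes were all members with counts, their copies past that limit, and the called genes of the RNA-processing list. Alternatives were DESeq2 1.42.0, other scalings and filters, the authors' factors, covariates, summed overlaps and left-out libraries. 2 were added after the data were seen (both corrections together, and no β-Mfn2KO replicates 4 and 5). The members, lists and tests were chosen with earlier results of these data known. Python 3.11.15, NumPy 2.4.6, pandas 2.3.3 and Matplotlib 3.10.9 were used.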

Additional observations from a re-analysis of the deposited data

Results flagged for a closer look

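In 5 of 96 groups of 4 to 6 libraries, 1 for each gene and genotype plus the shares and the make-up, a library stood further from its neighbours than Dixon's 95% limit allows, which is about the 1 in 20 that chance gives. β-Mfn1KO replicate 4, the 1 male of its group, was low for mt-Nd2 (at 42828 normalized counts, with the others of its group from 59103 to 62271). The same library was low for mt-Nd5 (at 54956 normalized counts, with the others of its group from 87201 to 89975). β-Mfn2KO replicate 3 was low for mt-Nd2 (at 32253 normalized counts, with the others of its group from 39433 to 42084). β-Mfn2KO replicate 1 was high for mt-Co1 (at 146672 normalized counts, with the others of its group from 129209.7 to 130714), and also for mt-Cytb (at 63649 normalized counts, with the others of its group from 52573 to 55721).

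The effect of losing Mfn1 differed with Mfn2 status by the interaction term of edgeR's quasi-likelihood test (adjusted p under 0.05 over all genes) for 13 members. On the log2 scale the interaction was −1.51 for mt-Rnr1, −0.99 for mt-Rnr2, −1.09 for mt-Nd1, −1.28 for mt-Nd2 and −0.86 for mt-Co1. It was −0.88 for mt-Co2, −1.89 for mt-Atp8, −0.94 for mt-Atp6, −0.87 for mt-Co3 and −1.5 for mt-Nd3. For mt-Nd4, mt-Nd6 and mt-Cytb it was −1.03, −0.72 and −0.95. The values of mt-Atp8 and mt-Nd3 were −1.0 and −1.08 with the authors' normalization factors.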

How the results depend on the processing

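Total-count scaling moved the median of all genes in β-Mfn1/2DKO against Ctrl from 0.06 to 0.19 on the log2 scale, and under it 13 mRNAs and 2 rRNAs were still called lower there. mt-Atp8 in β-Mfn2KO changed sign with total-count scaling (0.0172) and without single libraries (0.04 without Ctrl replicate 4, 0.01 without Ctrl replicate 5, and 0.10, 0.06 and 0.09 without β-Mfn2KO replicates 1, 2 and 3), and was not called in any of these. Without single libraries it ran from −0.25 to 0.10. Over all settings 8 to 11 mRNAs were called in β-Mfn2KO, with 8 without Ctrl replicate 1, 4 or 5 or β-Mfn2KO replicate 3. In β-Mfn1/2DKO all were called in every setting, 11 of 11 once mt-Atp8 was summed with mt-Atp6 and mt-Nd4l with mt-Nd4, and otherwise 13 of 13. Among libraries over 40 M counts 1 of 2 rRNAs was called between β-Mfn1/2DKO and β-Mfn2KO. For the interaction 1 rRNA was called without β-Mfn2KO replicates 4 and 5, and 1 to 2 without single libraries, while 10 to 12 mRNAs were called over all settings. Whether the replicate numbers of the labels pair the libraries could not be settled. Between libraries of different groups r was over 0.1 in 16 of 27 same-number pairs, with a mean of 0.127 against −0.0279 for other numbers. By sex the mean was 0.112 in same-sex pairs against −0.107 in the others. Most same-number pairs were of the same sex, so number and sex cannot be told apart here. With the replicate block 10 mRNAs were called in β-Mfn2KO, 13 in β-Mfn1/2DKO and 12 instead of 11 for the interaction, where mt-Nd4l was added. As same-number pairs the rRNA share differed from Ctrl by −0.00154 points in β-Mfn2KO and −0.0290 in β-Mfn1/2DKO.

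Among shares of a library, the mRNA difference of β-Mfn1KO was −0.335 points in males (1 against 3). That of β-Mfn1/2DKO from β-Mfn2KO was −0.590 in females, where the rRNA difference was −0.0391. The mt-Nd6 difference of β-Mfn1KO ran from −0.00429 to −0.00184 without single libraries. It passed without Ctrl replicate 6, at −0.00429, adjusted over the comparisons with Ctrl alone. The mt-Nd6 difference of β-Mfn1/2DKO from β-Mfn2KO was −0.00939 over 40 M counts. For the make-up, complex III between β-Mfn1/2DKO and β-Mfn2KO was at 0.0550 over 40 M counts and −0.972 in females, and complex V at 1.06 for β-Mfn1KO in males and 0.640 for β-Mfn1/2DKO in females. With both corrections complex V was at 0.874 in β-Mfn2KO and 0.806 in β-Mfn1/2DKO, and mt-Nd6 at −0.382 in β-Mfn2KO, and all 3 passed. mt-Nd6 in β-Mfn2KO ran from −0.497 to −0.386 without single libraries, and was 0.563 higher in β-Mfn1/2DKO than in β-Mfn2KO in females. rRNA per 100 mRNA counts ran from 1.37 to 1.84 in β-Mfn2KO and from 0.927 to 1.51 in β-Mfn1/2DKO without single libraries, passing without Ctrl replicate 6, and differed by −1.31 between β-Mfn1/2DKO and β-Mfn2KO in females. Of single mRNA shares, 1, 2, 3 and 6 passed with copies summed in β-Mfn1KO, β-Mfn2KO and β-Mfn1/2DKO against Ctrl and β-Mfn1/2DKO against β-Mfn2KO, and 1, 3, 5 and 3 with both corrections. The cause of these shifts was not tested. Depth and genotype cannot be told apart for β-Mfn1/2DKO against any other group, nor for the interaction. The shallowest β-Mfn1/2DKO library held 65.5 M counts, and the deepest library of the other groups, β-Mfn2KO replicate 5, held 59.5 M. This also holds among the libraries over 40 M counts.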
